A study of Mus musculus with 48 samples.

Results

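Collagen genes were followed in 48 subcutaneous mouse tumours, as the 43 genes of the count table whose symbol is Col, a number, the letter a and a number, leaving out 1 gene of that form. The table holds 39637 genes in all. Of the 43, 11 encode fibrillar chains, 8 basement membrane chains, 8 network chains, 9 fibril-associated chains and 7 other collagens. AB1 mesothelioma or Renca kidney cancer cells had been injected under the skin of female BALB/c mice aged 8 to 9 weeks, and each whole tumour was removed on day 8 (AB1) or day 10 (Renca), before treatment. The mice were later given antibodies against CTLA4 and PD-L1 and classed as responders or non-responders. This gave 4 groups of 12 tumours: AB1 responders, AB1 non-responders, Renca responders and Renca non-responders, each tumour from a different mouse. The comparisons ask whether collagen transcripts in untreated tumours went with the later response, whether that relation was the same in both tumours, and how the tumours differed. Both models are cell lines grown under the skin, so mesothelium and kidney are not the tissues around them.

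Collagens are extracellular proteins built as triple helices of 3 chains. Fibrillar collagens (types I, III and V among them) form the cross-banded fibres of connective tissue and are made mainly by fibroblasts, whereas type IV collagen forms the sheet-like network of basement membranes. Network collagens of types VI and VIII make beaded filaments and lattices around cells, and fibril-associated collagens coat the surface of fibrils and link them to other matrix. In tumours, collagen is known as a product of the stroma that shapes stiffness and the movement of immune cells, and some tumour cells make collagens of their own.

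The 6 type IV genes lie in 3 head-to-head pairs, read outward in opposite directions from a shared start region, and the sequence between the starts is shown for the pairs that hold Col4a3 and Col4a5, which differed sharply between AB1 and Renca. Coordinates are of GRCm38 with gene starts from GENCODE M21, and the letters are from the RefSeq promoter table of GRCm38.p6, in which 34 of the 43 genes matched. Col4a4 and Col4a3 have 71 bases between their starts (chr1:82586850-82586920, printed on the minus strand, 5′ to 3′ in the direction of Col4a4). Col4a6 and Col4a5 lie 1308 bases apart on chromosome X, and the bases before each start are printed (chrX:141474077-141474326 on the minus strand for Col4a6, chrX:141475169-141475384 on the plus strand for Col4a5). The 250 bases before Col3a1 (chr1:45311288-45311537, plus strand) are added because Col3a1 took the largest share of collagen counts in every group and fell in AB1 responders. In GENCODE M21 the genes themselves lie as follows: Col4a3 (ENSMUSG00000079465) at chr1:82586921-82722059, Col4a4 (ENSMUSG00000067158) at chr1:82448423-82586849, Col4a5 (ENSMUSG00000031274) at chrX:141475385-141689234, Col4a6 (ENSMUSG00000031273) at chrX:141165403-141474076 and Col3a1 (ENSMUSG00000026043) at chr1:45311538-45349706. None of the 4 stretches overlaps an annotated exon. Capitals mark matches to TATAAA (the core of a TATA box), to the CCAAT box or to GGGCGG (the core of a GC box), searched on both strands, and no match overlapped another.
Col4a4 and Col4a3: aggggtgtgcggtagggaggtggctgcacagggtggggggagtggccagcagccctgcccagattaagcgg
Col4a6: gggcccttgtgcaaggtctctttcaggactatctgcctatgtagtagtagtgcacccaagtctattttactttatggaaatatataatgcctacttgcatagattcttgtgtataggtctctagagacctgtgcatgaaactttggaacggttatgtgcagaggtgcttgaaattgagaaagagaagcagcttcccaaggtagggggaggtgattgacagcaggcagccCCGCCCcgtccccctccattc
Col4a5: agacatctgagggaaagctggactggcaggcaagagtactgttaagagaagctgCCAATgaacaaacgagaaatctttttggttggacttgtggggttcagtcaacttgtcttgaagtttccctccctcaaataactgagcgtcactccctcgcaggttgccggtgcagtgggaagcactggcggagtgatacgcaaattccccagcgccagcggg
Col3a1: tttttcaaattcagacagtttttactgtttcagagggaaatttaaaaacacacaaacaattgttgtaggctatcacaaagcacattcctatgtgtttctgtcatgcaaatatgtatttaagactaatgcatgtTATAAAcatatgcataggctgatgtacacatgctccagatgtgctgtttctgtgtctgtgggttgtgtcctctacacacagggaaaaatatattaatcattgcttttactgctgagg
The 71 bases shared by Col4a4 and Col4a3 held none of the 3 motifs. Col4a6 had 1 GGGCGG, read on the other strand, Col4a5 had 1 CCAAT and Col3a1 had 1 TATAAA. Among 32851 RefSeq promoter windows, GGGCGG was found in 32.7% and TATAAA in 12.4% of stretches of 250 bases, and CCAAT in 30.5% of stretches of 216 bases. In stretches of 71 bases the shares were 4.41% for TATAAA, 13.3% for CCAAT and 20.7% for GGGCGG, so each motif was absent from most. The Col4a1 and Col4a2 genes on chromosome 8 overlap by 22 bases at their starts, so no stretch between them exists.

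Library totals ran from 16.4 to 27.8 M counts. Levels are given in CPM, the count of a gene per M counts of its library, after TMM scaling, a correction for differences in library composition. The 7 renal tubule markers summed to 212 to 471 CPM in Renca and 1.37 to 6.81 CPM in AB1. The 4 mesothelium markers analysed (Wt1, Krt19, Upk3b and Lrrn4) summed to 0.218 to 8.96 CPM in AB1. Wt1 lay between 0.181 and 7.93 CPM there and was higher in AB1 than in Renca (1.46 ± 0.26 on the log2 scale, adjusted p = 2.26e-06), whereas Upk3b had no count in 8 of 12 AB1 non-responders and 7 of 12 AB1 responders. AB1 responder 12 stood apart from the other AB1 responders. It was the highest of the 12 responders for 20 of the 21 collagens that passed as lower in AB1. For 22 of the 24 collagens that passed the AB1 test its level lay inside the range of the 12 non-responders. The same share over all genes is not given, so this is not read as particular to collagens. Values without this library are given for the main AB1 members, the counts of members that passed and the chain ratios. Marker and list counts include responder 12. Each tumour was sequenced on 2 flow cells holding both response groups, and AB1 and Renca never shared one, so tumour line, day of removal and flow cell cannot be told apart. In these bulk samples, fewer cells of a type and less RNA per cell cannot be told apart either.

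Collagen genes together took 2.74% to 4.44% of all counts in AB1 non-responders (median 3.34%) and 1.46% to 3.88% in AB1 responders (median 1.61%). Without responder 12 the highest AB1 responder stood at 2.05%, below all 12 AB1 non-responders. In Renca the non-responders ran from 2.10% to 4.58% (median 3.39%) and the responders from 2.31% to 5.53% (median 3.69%), so these groups overlapped widely.

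**Figure D1:**
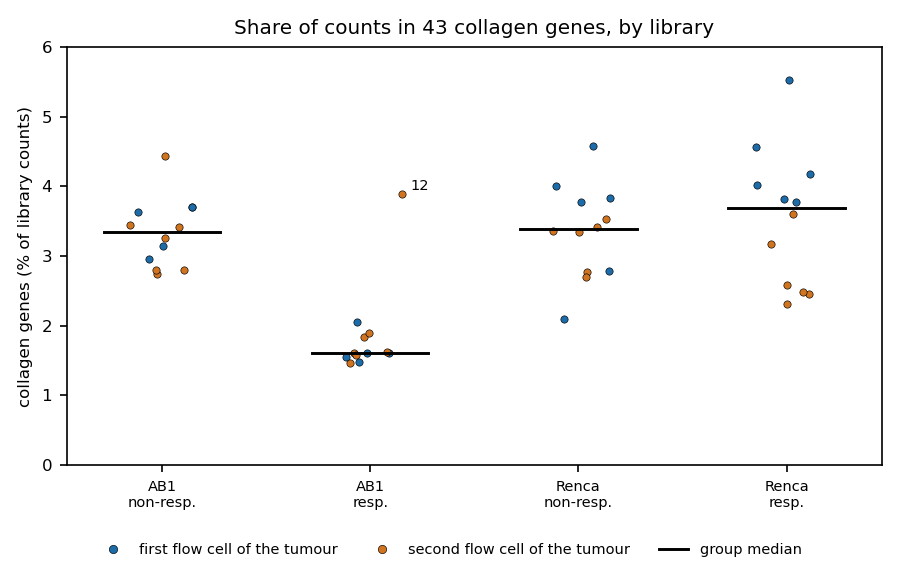
Percent of each library's counts that fell in the 43 collagen genes, by group, with points coloured by flow cell and a bar at the group median. AB1 responder 12, labelled, sits at 3.88% while the other 11 AB1 responders stay at or under 2.05%, and Renca responders of the first flow cell lie above those of the second.

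Col3a1, the chain of type III collagen, took 39.4% of collagen counts in AB1 non-responders, 35.6% in AB1 responders, 28.1% in Renca non-responders and 29.5% in Renca responders. Col1a2 and Col1a1, which together form type I collagen, followed in every group, with 19.9% and 9.95% in AB1 non-responders against 21.1% and 16.4% in Renca non-responders. Per kilobase of exon, the mean level in AB1 non-responders was 1348 ± 228 CPM per kb for Col3a1, 537 ± 76.6 for Col1a2 and 512 ± 130 for Col1a1 (SD, n = 12), and the last pair did not differ beyond their spread. Col6a1 (298 CPM per kb) and Col5a2 (226 CPM per kb) came next in that group. In Renca non-responders the order was Col3a1 (937 CPM per kb), Col1a1 (820), Col1a2 (555), Col6a1 (373) and Col6a2 (157). The length used is that of all annotated exons of a gene joined, whichever transcripts were present. It was 6563 bases for Col1a1 against 12426 for Col1a2, and 4380 for Col6a1 against 8326 for Col6a2. The order within these pairs therefore depends on the length measure, and by counts Col1a2 stood above Col1a1. At the other end, Col2a1, Col9a1, Col9a2, Col19a1 and Col22a1, several of them cartilage collagens, never exceeded 0.892 CPM and entered no test. Col25a1 and Col26a1 were too low to test in AB1, and Col4a6 too low in Renca.

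In AB1, most collagens were lower in tumours of mice that later responded. Of 36 collagens tested, 21 fell, 3 rose and 12 did not pass, with a median log2 fold change of -0.62 (responder against non-responder). Over all 15859 genes tested, 60.4% passed at an adjusted p under 0.05, 32.7% as lower and 27.7% as higher, and the median log2 fold change was -0.04. The test was edgeR's quasi-likelihood F test with flow cell as a term and Benjamini-Hochberg adjustment over all genes. Errors of log2 fold changes are standard errors.

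Fibrillar collagens fell nearly throughout: 9 of 10 tested members passed as lower and 1, Col11a2, did not pass (0.23 ± 0.15, adjusted p = 0.18). Their median log2 fold change was -0.80. Col3a1 ran from 10174 to 17548 CPM in non-responders (median 13423) and from 5351 to 13928 CPM in responders (median 6062). Apart from responder 12, no responder exceeded 7320 CPM, so 11 of 12 responders lay below every non-responder. Its log2 fold change was -0.93 ± 0.14 (adjusted p = 4.91e-06 by edgeR).

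Col5a2, a chain of type V collagen that is built into type I fibrils, ran from 1785 to 2713 CPM in non-responders (median 2152) and from 1122 to 2073 CPM in responders (median 1286). Again the groups overlapped only through responder 12, the next responder being at 1505 CPM. The log2 fold change was -0.63 ± 0.09 (adjusted p = 4.1e-06). Col27a1, a fibrillar chain first known from cartilage, spanned 93.1 to 179.5 CPM in non-responders (median 128) and 41.8 to 122 CPM in responders (median 52.0). Here too 11 responders lay under the whole non-responder range, and the log2 fold change was -1.16 ± 0.15 (adjusted p = 1.13e-06).

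Col11a1 had the largest fall of the fibrillar class. This chain of type XI collagen sets the width of thin fibrils and is known in stroma of several carcinomas. It ran from 40.3 to 142 CPM in non-responders (median 71.5) and from 6.05 to 81.5 CPM in responders (median 14.1), with 11 responders at or under 27.3 CPM. The log2 fold change was -1.89 ± 0.34 (adjusted p = 6.01e-05). The type I chains Col1a1 (-0.85 ± 0.19) and Col1a2 (-0.82 ± 0.15), the type V chains Col5a1 (-0.78 ± 0.17) and Col5a3 (-0.77 ± 0.22), and Col24a1 (-0.68 ± 0.16) also fell. For Col1a1, Col1a2 and Col5a1, 11 of 12 responders lay below all non-responders.

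**Figure D2:**
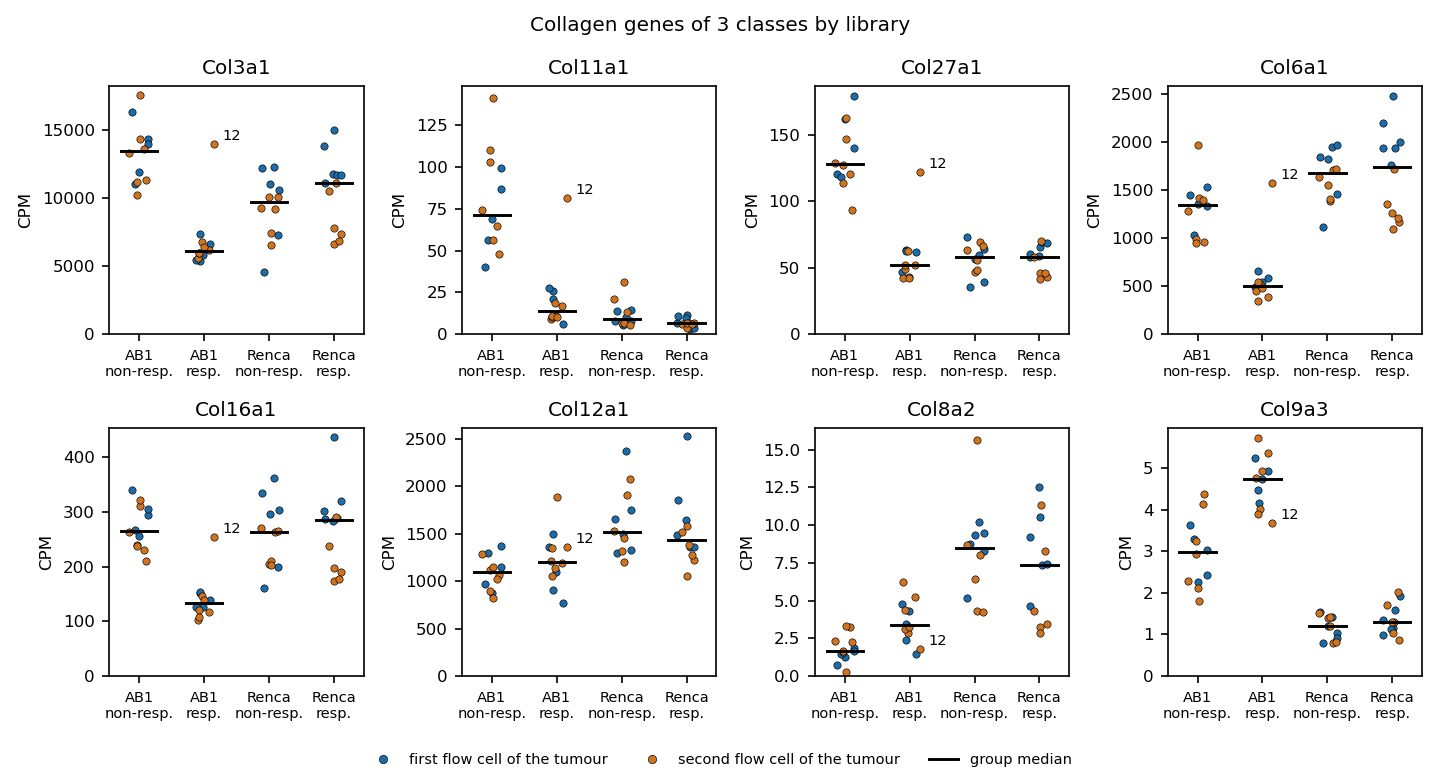
CPM of 8 collagen genes in each library on linear axes from 0, with points coloured by flow cell and a bar at the group median. AB1 responder 12 is labelled and lies with the non-responders for Col3a1, Col11a1, Col27a1, Col6a1 and Col16a1, while Col8a2 and Col9a3 run the other way.

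Basement membrane collagens were divided. In this class 5 of 8 members fell and 3 did not pass, and the median log2 fold change was -0.41. The 2 minor type IV chains of the X chromosome fell most. Col4a5, a chain of the kidney glomerular and other specialised basement membranes, ran from 20.7 to 38.3 CPM in non-responders (median 27.6) and from 5.37 to 25.2 CPM in responders (median 8.72). All but responder 12 were at or under 13.0 CPM, and the log2 fold change was -1.42 ± 0.19 (adjusted p = 1.79e-06). Its head-to-head neighbour Col4a6 was far lower, at 0.475 to 1.51 CPM in non-responders (median 0.875) and 0.0455 to 1.11 CPM in responders (median 0.224). This rested on 12 to 32 counts per non-responder library and 1 to 27 per responder library, and the log2 fold change was -1.54 ± 0.32 (adjusted p = 0.000225).

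The main type IV chain, Col4a1, present in all basement membranes, moved much less. It spanned 795 to 1300 CPM in non-responders (median 1054) and 644 to 1062 CPM in responders (median 800), with 6 responders below every non-responder. The log2 fold change was -0.29 ± 0.08 (adjusted p = 0.00448), and its partner Col4a2 did not pass at -0.17 ± 0.08 (adjusted p = 0.0653). Scaling by upper quartiles (-0.23, adjusted p = 0.0175) or by library totals (-0.25, adjusted p = 0.0139) let Col4a2 pass. Col15a1 (-0.58 ± 0.13) and Col18a1 (-0.54 ± 0.13), the basement membrane zone collagens whose C-terminal fragments are restin and endostatin, fell as well. Col4a3 (0.23 ± 0.30) and Col4a4 (-0.20 ± 0.20), at or under 1.78 CPM in every AB1 library, did not pass.

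**Figure D3:**
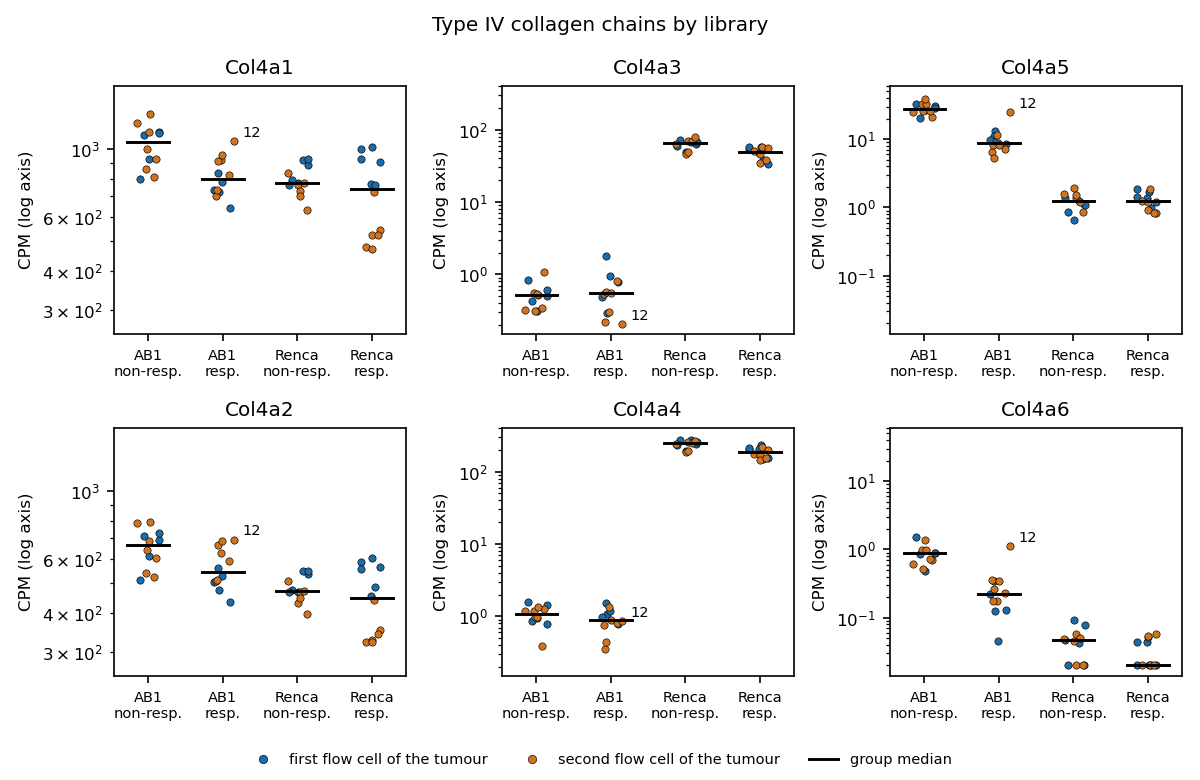
CPM of the 6 type IV collagen chains in each library on log axes whose ranges differ between columns of panels, with libraries without a count drawn at the lowest position of the Col4a6 panel. The Col4a1 and Col4a2 pair is high in both tumours, Col4a3 and Col4a4 are high in Renca, and Col4a5 is high in AB1 and lower in its responders.

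Among network collagens, 5 of 8 fell, 1 rose and 2 did not pass, with a median log2 fold change of -0.62. The 3 main chains of type VI collagen, which form beaded filaments around cells, fell together. Col6a1 ran from 944 to 1968 CPM in non-responders (median 1341) and from 346 to 1570 CPM in responders (median 502), and 11 responders stood at or under 659 CPM. Its log2 fold change was -1.11 ± 0.20 (adjusted p = 4.53e-05). Col6a2 spanned 582 to 1451 CPM in non-responders (median 895) and 243 to 1147 CPM in responders (median 318), with a log2 fold change of -1.17 ± 0.22 (adjusted p = 8.69e-05). Col6a3 fell by 0.92 ± 0.22, again with 11 responders below every non-responder. Of the minor type VI chains, Col6a6 fell by 1.54 ± 0.43 with overlapping groups (0.399 to 12.7 against 0.620 to 4.62 CPM), and Col6a4 and Col6a5 did not pass.

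The 2 chains of type VIII collagen, found in vessel walls and in the cornea, went in opposite directions. Col8a1 ran from 161 to 446 CPM in non-responders (median 211) and from 128 to 229 CPM in responders (median 160), and passed narrowly as lower (-0.33 ± 0.14, adjusted p = 0.0452). That call was lost with the replicate number as a block (adjusted p = 0.0827), and it held in 16 of 37 alternative fits. Col8a2 rose, from 0.264 to 3.32 CPM in non-responders (median 1.64) to 1.48 to 6.21 CPM in responders (median 3.35). For Col8a2, 6 responders lay above every non-responder, and the log2 fold change was 1.06 ± 0.28 (adjusted p = 0.00239).

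Fibril-associated collagens showed no common direction: of 5 tested members, 2 fell, 2 rose and 1 did not pass, and their median log2 fold change was 0.22. Col16a1, which links fibrils to other matrix, spanned 211 to 340 CPM in non-responders (median 265) and 103 to 255 CPM in responders (median 133). All responders except number 12 were at or under 154 CPM, and the log2 fold change was -0.91 ± 0.12 (adjusted p = 1.09e-06). Col14a1, which binds the surface of mature fibrils, ran from 39.1 to 182 CPM in non-responders (median 75.8) and from 24.5 to 63.2 CPM in responders (median 34.0), with a log2 fold change of -1.10 ± 0.22 (adjusted p = 0.000145).

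Col12a1, a fibril-associated collagen of load-bearing tissue and the most abundant of its class by CPM, did not follow the fibrillar chains. It ran from 823 to 1369 CPM in non-responders (median 1093) and from 770 to 1886 CPM in responders (median 1202), and did not pass (0.22 ± 0.12, adjusted p = 0.104). Col9a3, a chain of cartilage type IX collagen, rose from 1.81 to 4.37 CPM in non-responders (median 2.98) to 3.67 to 5.71 CPM in responders (median 4.74). Every responder exceeded the non-responder median, 8 exceeded all non-responders, and the log2 fold change was 0.69 ± 0.14 (adjusted p = 0.000149). Col9a3 shares 234 of its 3853 exon bases with Tcfl5 on the opposite strand. Without the strand setting, reads of the 2 genes cannot be told apart within those shared bases. Col20a1 rose by 0.37 ± 0.12 between low and overlapping levels (3.85 to 8.49 against 4.87 to 7.28 CPM).

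Of the other collagens none of 5 tested members passed in AB1. Col7a1, the anchoring fibril collagen of skin, spanned 4.93 to 27.5 CPM in non-responders (median 11.02) and 3.18 to 35.4 CPM in responders (median 5.36), the highest value being responder 12. Its log2 fold change of -0.61 ± 0.33 (adjusted p = 0.107) became -1.09 (adjusted p = 0.000239) without that library and -0.80 (adjusted p = 0.0108) with the replicate block. Col23a1, a membrane-spanning collagen, ran from 4.20 to 24.6 CPM in non-responders and from 2.23 to 27.8 CPM in responders and did not pass either (-0.52 ± 0.26, adjusted p = 0.0938). It passed without responder 12 (-0.73, adjusted p = 0.0123) and with the replicate block (-0.67, adjusted p = 0.0383). Col17a1, the membrane-spanning collagen of skin hemidesmosomes, reached 21.2 CPM in AB1 non-responder 7. Its log2 fold change of -0.85 ± 0.57 turned to 0.72 (adjusted p = 0.0112) when AB1 non-responders 3 and 7 and responder 3, which carried skin keratin transcripts, were left out.

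Without AB1 responder 12, all 24 AB1 calls held and 27 collagens passed, 24 as lower and 3 as higher. All 24 log2 fold changes were then larger in size. That library was singled out by its levels of these same genes, so larger differences without it follow from the choice and add no support. The median log2 fold change of the 21 members that fell went from -0.91 to -1.05. All 24 calls had the same sign in both flow cells of AB1, and 21 of them passed in the first flow cell alone and 15 in the second. The calls came from the fit over both flow cells, so equal signs in each are no independent check. These counts are given without the share of all genes in the same fits. Their changes are therefore not read as particular to collagens. Without responder 12 the log2 fold change was -1.07 for Col3a1, -0.70 for Col5a2, -1.32 for Col27a1 and -2.35 for Col11a1 among the fibrillar chains. It was -1.64 for Col4a5, -1.93 for Col4a6 and -0.32 for Col4a1, and Col4a2 then passed (-0.19, adjusted p = 0.0354). Among the network and fibril-associated chains it was -1.36 for Col6a1, -1.46 for Col6a2, -0.36 for Col8a1, 1.14 for Col8a2, -1.03 for Col16a1, -1.23 for Col14a1 and 0.72 for Col9a3. With all libraries, the fold change of Col3a1 was -1.09 in the first and -0.79 in the second, and for Col4a5 it was -1.38 and -1.42.

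**Figure D4:**
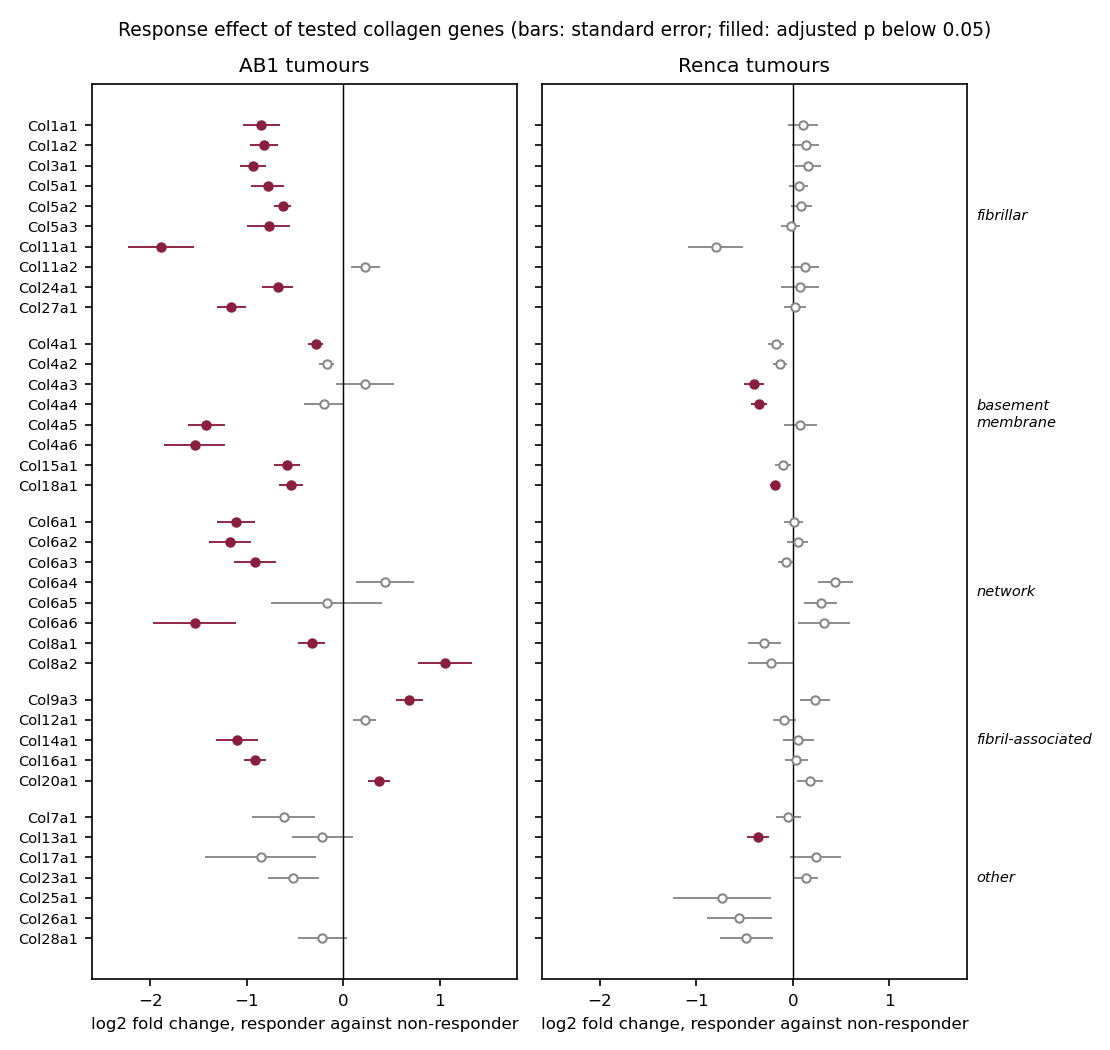
Log2 fold change (responder against non-responder) of each collagen tested in AB1 (left) or Renca (right), grouped by class, with bars for 1 standard error and filled points for an adjusted p under 0.05. In AB1, 21 members pass to the left of 0 and 3 to the right, and in Renca 4 pass, all to the left.

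Markers of several cell types moved with response in AB1, and their part in the collagen differences was not tested. These lists are read against the 60.4% of all AB1 genes that passed. Of 8 fibroblast markers 5 fell and 1 rose, with summed levels of 872 to 1258 CPM in non-responders (median 967) and 676 to 1150 CPM in responders (median 847). Fap, a protease of activated fibroblasts, fell by 1.19 ± 0.18, and Dpt by 1.11 ± 0.24, while Thy1, also carried by T cells, rose by 0.84 ± 0.14. Pericyte and smooth muscle markers fell in 4 of 6 cases, with sums of 162 to 367 CPM in non-responders against 117 to 212 CPM in responders. That share (66.7%) was near that of all genes passing in either direction. All 8 leukocyte markers rose, and their sum was 1547 to 2370 CPM in non-responders and 2294 to 5120 CPM in responders. The lowest of these responder sums was that of responder 12, and the next, 3276 CPM, lay above every non-responder. Responder 12 also had the highest fibroblast sum and the highest pericyte and smooth muscle sum among the responders. For blood endothelium, 3 of 7 markers were lower and 1 higher, a share (57.1%) near that of all genes. None of 8 skeletal muscle markers passed, and all 4 tested skin markers fell, with AB1 non-responder 3 reaching a sum of 781 CPM. Of the bone and cartilage markers, 3 of 5 tested fell (Dmp1, Phex and Sox9 by 3.30, 2.27 and 1.77), a share (60%) also near that of all genes. Of the fat markers 1 of 6 fell (Fabp4 by 0.80).

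In Renca, few collagens differed between responders and non-responders. Of 37 tested, 4 fell and none rose, and the median log2 fold change was 0.02. Over all 15778 genes tested in Renca, 19.6% passed, 8.52% as lower and 11.1% as higher, with a median of -0.01, so the share of collagens that passed as lower, 10.8%, was near that of all genes. All 10 fibrillar, 8 network and 5 fibril-associated collagens tested missed the threshold, while 3 of 7 basement membrane and 1 of 7 other collagens passed.

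The Renca calls were genes that Renca expressed far above AB1. Col4a3 ran from 46.3 to 79.7 CPM in non-responders (median 65.3) and from 33.5 to 57.9 CPM in responders (median 49.0), with a log2 fold change of -0.41 ± 0.11 (adjusted p = 0.0102). Its head-to-head neighbour Col4a4 spanned 184 to 274 CPM in non-responders (median 245) and 147 to 234 CPM in responders (median 189), and fell by 0.35 ± 0.08 (adjusted p = 0.00703). Both pairs of groups overlapped, with 5 responders below every non-responder for Col4a3 and 6 for Col4a4. Col18a1 ran from 695 to 891 CPM in non-responders (median 789) and from 540 to 870 CPM in responders (median 665), and fell by 0.19 ± 0.05 (adjusted p = 0.0125). Col13a1, a membrane-spanning collagen, ran from 9.45 to 16.2 CPM in non-responders (median 13.5) and from 5.49 to 15.2 CPM in responders (median 9.69), and fell by 0.37 ± 0.11 (adjusted p = 0.0262). The Col13a1 call was lost without Renca responder 5 (adjusted p = 0.0534), responder 8 (0.053), non-responder 10 (0.0559) or non-responder 12 (0.0558), and it held in 27 of 36 alternative fits. Renal tubule markers fell beside them in 4 of 6 tested cases, among them Cdh16 by 0.38 ± 0.07 and Pax2 by 0.24 ± 0.06, and 7 of 8 leukocyte markers rose. Their part in the 4 collagen calls was not tested. None of the 4 calls passed with the RNA purity ratios of the labels as covariates, which left 203 passing genes in the whole table.

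Col3a1 in Renca ran from 4575 to 12227 CPM in non-responders (median 9651) and from 6592 to 14936 CPM in responders (median 11084), and did not pass (0.16 ± 0.14, adjusted p = 0.443). Col11a1 spanned 5.16 to 31.1 CPM in non-responders and 2.89 to 11.5 CPM in responders and missed the threshold by little (-0.80 ± 0.29, adjusted p = 0.0517). It passed in DESeq2 (-0.81, adjusted p = 0.0364) and with library totals alone (-0.83, adjusted p = 0.0377). Col4a1 (-0.17 ± 0.08), Col6a1 (0.01 ± 0.10), Col12a1 (-0.09 ± 0.12), Col6a4 (0.44 ± 0.18), Col8a1 (-0.30 ± 0.17), Col9a3 (0.23 ± 0.15), Col20a1 (0.18 ± 0.13), Col28a1 (-0.48 ± 0.27) and Col7a1 (-0.05 ± 0.13) did not pass.

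The small Renca differences varied between flow cells. Of 36 members with a value in both, 24 lay above 0 in the first flow cell and below 0 in the second. The share of all genes that did so is not given, and the change is not read as particular to collagens. Collagen genes took 3.77% to 5.53% of counts in first-flow-cell responders against 2.10% to 4.58% in non-responders, and 2.31% to 3.60% in second-flow-cell responders against 2.70% to 3.53% in non-responders. For Col1a1 the log2 fold change was 0.43 in the first (adjusted p = 0.337) and -0.22 in the second (adjusted p = 0.276). Col4a1 (-0.43, adjusted p = 0.0199) and Col4a2 (-0.36, adjusted p = 0.0195) passed in the second flow cell alone, where the first gave 0.09 and 0.10. The 4 Renca calls came from the fit over both flow cells and had the same sign in each. None passed in the first alone, and only Col18a1 passed in the second.

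The response effect in AB1 differed from that in Renca for 47.4% of collagens, near the share of all genes, and mostly below 0. In a fit over all 48 libraries, the AB1 effect minus the Renca effect passed for 18 of 38 collagens, 16 below 0 and 2 above. Over all 16920 genes tested, 41.6% passed, 18.6% below 0 and 22.9% above, against 42.1% and 5.3% of collagens. By class, 8 of 10 fibrillar, 2 of 8 basement membrane, 5 of 8 network, 3 of 5 fibril-associated and 0 of 7 other collagens passed. Col27a1 (-1.15 ± 0.19, adjusted p = 6.65e-06), Col4a5 (-1.47 ± 0.26, adjusted p = 2.35e-05), Col3a1 (-1.06 ± 0.20, adjusted p = 3.3e-05) and Col16a1 (-0.91 ± 0.17, adjusted p = 4.25e-05) had the smallest p-values. Col8a2 (1.33 ± 0.38) and Col9a3 (0.50 ± 0.20) passed above 0, but Col9a3 was lost in DESeq2 (0.46, adjusted p = 0.0561) and under each other scaling. Col6a1 (-1.09 ± 0.22), Col6a2 (-1.19 ± 0.25), Col14a1 (-1.13 ± 0.27) and Col15a1 (-0.44 ± 0.16) passed as well. For the main basement membrane chain Col4a1 the difference was -0.08 ± 0.12 (adjusted p = 0.622). Col12a1 (0.35 ± 0.17), Col23a1 (-0.62 ± 0.30), Col25a1 (1.44 ± 0.70) and Col7a1 (-0.53 ± 0.35) did not pass. Without AB1 responder 12, 23 collagens passed in place of 18, with Col11a1 (-1.52, adjusted p = 0.00175), Col18a1, Col7a1, Col23a1 and Col4a3 added. The replicate block added Col25a1 (1.37, adjusted p = 0.0356) besides these 5. Here too the share of all genes in these fits is not given beside the counts, and responder 12 was singled out by its collagen levels.

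Between the tumours, most collagens differed, as did most genes. Of 37 tested, 12 were higher in AB1, 22 were higher in Renca and 3 did not pass, with a median log2 fold change of -0.56 (AB1 against Renca). Thus 91.9% of collagens passed. Over all 16258 genes tested, 81.4% passed, 42.2% as higher in AB1 and 39.3% as lower, with a median of 0.03. Col4a4 and Col4a3 gave the widest gaps. Col4a4 lay between 0.355 and 1.56 CPM in AB1 (median 0.974) and between 147 and 274 CPM in Renca (median 210), and Col4a3 between 0.206 and 1.78 CPM in AB1 (median 0.530) and between 33.5 and 79.7 CPM in Renca (median 56.0). No AB1 library reached any Renca library for either gene, and the log2 fold changes were -7.71 ± 0.11 (adjusted p = 1.5e-46) and -6.55 ± 0.16 (adjusted p = 2.56e-37). The X-chromosome pair ran the other way: Col4a5 stood at 5.37 to 38.3 CPM in AB1 (median 21.01) and 0.645 to 1.90 CPM in Renca (median 1.22), with a log2 fold change of 3.77 ± 0.18 (adjusted p = 1.6e-24). Col4a6 had no count in 4 Renca non-responders and 7 Renca responders, and in AB1 no library was at 0. Col4a1 (0.28 ± 0.08) and Col4a2 (0.39 ± 0.07) differed least within type IV.

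Col7a1 lay between 3.18 and 35.4 CPM in AB1 (median 7.84) and between 123 and 368 CPM in Renca (median 199), with no overlap and a log2 fold change of -4.38 ± 0.22 (adjusted p = 7.49e-24). Col13a1 (-2.52 ± 0.17) and Col18a1 (-1.69 ± 0.09) also had no overlap between tumours. Over all libraries, type VI chains were higher in Renca, Col6a1 by a log2 fold change of -0.92 ± 0.15 (346 to 1968 against 1092 to 2477 CPM) and Col6a4 by one of -1.47 ± 0.17. For Col6a1 that value pools unlike response groups. Its flow-cell medians were 1352 and 1284 CPM in AB1 non-responders against 1837 and 1593 CPM in Renca non-responders. In responders they were 541 and 484 CPM in AB1 against 1970 and 1238 CPM in Renca. In AB1 the fibrillar chains Col5a2 (0.95 ± 0.10) and Col11a1 (2.19 ± 0.25), the network chain Col8a1 (1.09 ± 0.11) and the fibril-associated Col9a3 (1.55 ± 0.10) were higher, whereas Col12a1 was lower (-0.44 ± 0.09). Col3a1 did not pass over all libraries (-0.05 ± 0.13, adjusted p = 0.741), but its direction turned with the group compared: 0.51 among non-responders (adjusted p = 0.000839) and -0.63 among responders (adjusted p = 0.000945). Col16a1 likewise was -0.41 ± 0.12 over all libraries and 0.08 among non-responders alone (adjusted p = 0.541). In these fits of fewer libraries, 6 other collagens lost their call among non-responders alone and 4 among responders alone.

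Ratios of 2 chains within a library need no scaling between libraries. The log2 ratio was compared by a two-sided permutation test of 100000 resamples for 12 pairs of chains, 23 tests in all where both chains were measurable, with Benjamini-Hochberg adjustment over the 23. In AB1, 5 ratios passed, and none did in Renca. Col4a1 to Col4a2, the 2 chains that form the common type IV molecule, had a mean log2 ratio of 0.65 ± 0.04 in AB1 non-responders and 0.53 ± 0.05 in responders (SD, n = 12 each), a difference of -0.12 (permutation test, adjusted p = 0.00023). The spread of that ratio was small beside that of Col4a1 itself, whose log2 level had an SD of 0.23 in the same non-responders. Its unadjusted p of 1e-05 is the smallest that the resamples can give. In the first AB1 flow cell alone the difference was -0.07 (adjusted p = 0.073). The 22 exon bases that the 2 genes share lie on opposite strands.

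Col4a5 fell against Col4a1 in AB1 by 1.23 on the log2 scale (permutation test, adjusted p = 0.00023), which sets the minor chain apart from the main one in the same libraries. Col8a1 to Col8a2 fell by 1.46 (adjusted p = 0.00422) and Col3a1 to Col5a2, neighbouring genes 24614 bases apart on chromosome 1, by 0.32 (adjusted p = 0.00535). Col4a1 to Col1a1 was 0.61 higher in AB1 responders (adjusted p = 0.00598). In contrast, Col1a1 to Col1a2, the chains of type I collagen, differed by -0.02 in both tumours (adjusted p = 0.871 in AB1 and 0.657 in Renca), with a mean log2 ratio of -1.02 ± 0.21 in AB1 non-responders and -0.37 ± 0.07 in Renca non-responders. Within the second AB1 flow cell alone, Col3a1 to Col5a2, Col8a1 to Col8a2 and Col4a1 to Col1a1 no longer passed, while Col6a3 to Col6a1 then did. Without responder 12 the number of ratios that passed was again 5.

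Genes that make, process and read collagen were followed through lists, read against the 60.4% of all genes that passed in AB1 and the 19.6% in Renca. In AB1, 16 of 21 chain folding and modification genes fell and 1 (Plod3) rose, with a median log2 fold change of -0.59. Crtap (-0.53 ± 0.06), P3h3 (-0.78 ± 0.10) and P3h4 (-0.67 ± 0.09), parts of the prolyl 3-hydroxylation and lysyl hydroxylation machinery of the endoplasmic reticulum, had the smallest p-values, and the collagen chaperone Serpinh1 fell by 0.73 ± 0.12. Of 10 genes for propeptide cleavage and cross-linking, 3 fell (Pcolce, Loxl2 and Loxl3) and 1 rose (Adamts14), a share (40%) below that of all genes. Fibril-organising proteins fell in 7 of 9 cases, with Bgn at -0.53 ± 0.08, Sparc at -0.73 ± 0.13 and Aspn at -1.01 ± 0.18, while Prelp rose by 0.53 ± 0.20.

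Genes of collagen breakdown and uptake mostly fell too in AB1, with 9 of 13 lower and 2 higher (median log2 fold change -0.76). Mmp2, a gelatinase, fell by 0.83 ± 0.11, the uptake receptor Mrc2 by 0.76 ± 0.10 and the collagen-cleaving cathepsin Ctsk by 1.74 ± 0.27, while Mmp8, the neutrophil collagenase, rose by 1.16 ± 0.28 and the inhibitor Timp3 by 0.70 ± 0.19. Among 7 collagen receptors, 5 fell, including Itga10 (-1.46 ± 0.18) and Ddr2 (-0.71 ± 0.10), and the inhibitory leukocyte receptor Lair1 rose by 1.29 ± 0.18. In Renca the same lists gave 3 of 21, 2 of 9, 0 of 9, 0 of 13 and 3 of 7 passing genes in that order, the first of them (14.3%) and the next (22.2%) near the share of all genes, and Lair1 rose there too (0.55 ± 0.11, adjusted p = 0.0034). The lowest p-values of the difference between tumours in these lists belonged to Mmp2 (-1.10 ± 0.17), Itga10 (-1.46 ± 0.23) and Crtap (-0.49 ± 0.08).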

How the data were processed

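RNA sequencing counts of 48 whole tumours (4 groups of 12) were analysed. The authors deposited unnormalized gene counts, and HISAT2 2.0.4, StringTie 1.3.0 and bcl2fastq 2.18.0.12 are named per the submitters' processing notes. Those notes list GRCh37 and hg19, which are human builds, while all gene identifiers are from mouse. For the counting tool, annotation, mouse build and strand, the choice is not given in the sources used. Counts of genes with shared exon bases are therefore uncertain. Libraries are individual mice per the labels.

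From these counts, genes were filtered with filterByExpr, scaled by TMM and tested with the quasi-likelihood F test of edgeR 4.0.16 in R 4.3.3, with Benjamini-Hochberg adjustment and a threshold of 0.05. Each tumour was fitted alone with flow cell as a term, and all 48 libraries entered the difference between tumours and the tumour comparison. Standard errors are the log2 fold change divided by the square root of F. Total counts of 16.4 to 27.8 M set the precision. DESeq2 1.42.0, other scalings and filters, single flow cells and left-out libraries were alternatives. On simulated data, 61.6% of genes changed 1.5-fold and 92.9% of those changed 2-fold were recovered for AB1 (15747 genes), and 79.8% and 96% for Renca (15671 genes). At each fold size 99 genes were changed, with no flow cell effect, and false calls numbered 9 for AB1 and 8 for Renca. Far fewer genes changed there than passed in the data, so these rates do not describe recovery in the real fits.

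Same-numbered responder and non-responder libraries shared a lane in 12 of 12 pairs of either tumour, as the labels record. Numbers 1 to 8 each had a lane of their own, but 9 to 12 shared 1 lane, so among those the number marks no separate batch. Their deviations correlated at -0.0909 to 0.514 in AB1 and -0.125 to 0.261 in Renca, with 4 and 7 of 12 pairs above 0.1 and 2 of 12 in each tumour correlating best with their own number. A fit with the replicate number as a block was an alternative.

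The members and lists were chosen with earlier results of these data known. Named in each comparison were, by class, the 2 members with the smallest p and the 1 with the highest mean CPM. Other members were named after their values were seen.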

Additional observations from a re-analysis of the deposited data

Results flagged for a closer look

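The response effect differed between AB1 and Renca for 18 collagens, by the test of the difference itself (edgeR, AB1 effect minus Renca effect on the log2 scale, 12 mice per group). That was 47.4% of the 38 collagens tested, near the 41.6% of all genes that passed. Among fibrillar chains the difference was -0.92 for Col1a1, -0.92 for Col1a2, -1.06 for Col3a1, -0.81 for Col5a1, -0.68 for Col5a2, -0.72 for Col5a3, -0.72 for Col24a1 and -1.15 for Col27a1. Among basement membrane chains it was -1.47 for Col4a5 and -0.44 for Col15a1. Among network chains it was -1.09 for Col6a1, -1.19 for Col6a2, -0.81 for Col6a3 and -1.83 for Col6a6, and 1.33 for Col8a2. Among fibril-associated chains it was -1.13 for Col14a1, -0.91 for Col16a1 and 0.50 for Col9a3. Adjusted p-values ran from 6.65e-06 (Col27a1) to 0.0441 (Col9a3). The tumours were removed on different days and sequenced on different flow cells, so tumour line, day and flow cell cannot be told apart in these differences.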

How the results depend on the processing

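The number of collagens that passed was 24 in AB1 and lay between 16 (second flow cell alone) and 27 (3 libraries with skin RNA left out) over the alternatives, and leaving out 1 library at a time gave 23 to 27. Except where counts over all genes are printed below, changes in these numbers are not set against the whole table. They are not read as particular to collagens. In Renca, 4 passed, and none did with RNA purity ratios as covariates (0) or in the first flow cell alone (0), while 1 passed in a fit of all 48 libraries. Leaving out 1 Renca library gave 3 (without responder 8) to 6 (without responder 3). Over all genes, Renca had 203 passing with RNA purity ratios and 0 in the first flow cell alone, where 2803 had an unadjusted p under 0.05. The causes were not tested, although single flow cells hold fewer samples. The difference between tumours stood at 18 and at 18 to 24, and AB1 against Renca at 34 and at 28 to 36. Chain ratios that passed went from 5 to 3 in the second flow cell alone, where 3 of the 5 were lost and 1 was gained. With the replicate block, 25 collagens passed in AB1, 4 in Renca and 24 in the difference, and 6 chain ratios passed by sign flips of the pairs. The block changed no collagen call other than those of Col7a1, Col23a1 and Col8a1 in AB1 and the 6 named for the difference. Direction reversed for Col17a1 in AB1 without the skin libraries (0.72), for Dsp in AB1 with RNA purity ratios (0.19), and among non-responders alone for Col3a1 (0.51) and Col16a1 (0.076) in AB1 against Renca. With library totals alone, AB1 had 3575 genes higher and 6628 lower in place of 4396 and 5181, and Renca 1384 and 2464 in place of 1750 and 1345 (1553 and 1866 with upper quartiles). Depth limits Col4a6, Col4a3 and Col4a4 in AB1, which rest on at most 42 counts per library.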
